A study of Mus musculus with 15 samples.

Results

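Cell cycle and DNA replication genes were followed across the lungs of 15 mice fed diets with or without permethrin, a pyrethroid insecticide. The set was defined by symbol as 49 genes of S phase and mitosis, and every array probe whose RefSeq accession maps to one of these symbols was collected. This gave 73 probes, with 1 probe for 28 of the genes, 2 for 18 and 3 for 3. A signal well above background on all 3 arrays of at least 1 diet was required, which 61 probes and 46 of the 49 genes met, out of 34401 genes and unnamed transcripts tested in all. For 43 of the 46, the probe used was above background on all 15 arrays. The probes of Ccne2, Bub1b and Ttk did not meet the requirement, and no value is given for these genes.

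The mice were females of the outbred stock Crlj:CD1(ICR), labelled as 11 weeks old, and each array held whole lung RNA of 1 mouse. The 5 groups of 3 mice received powdered diet with 0 (control), 20, 500, 2500 or 5000 ppm permethrin for 7 days and shared all else that the labels describe. Whole lung RNA mixes every cell type of the organ. Because of this, fewer cells of a type and less RNA per cell cannot be told apart in any value given here.

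Most cells of an adult lung rest outside the cell cycle, and transcripts of this kind are most abundant in the minority of cells that divide. Which cells carried them in these lungs was not tested. The MCM helicase is loaded at origins by Cdc6 and Cdt1 before S phase. Cyclin E with its kinase and the E2F factors start S phase, in which DNA is copied with the clamp Pcna and freshly made deoxynucleotides. Cyclins A and B with Cdk1, and the Plk1 and Aurora kinases, then drive mitosis. The spindle checkpoint holds anaphase until every chromosome is attached, and the anaphase promoting complex with Cdc20 and Ube2c then releases it. Genes of the mitotic programme are repressed in resting cells by the DREAM complex, which binds a promoter element called the CHR, while NF-Y at CCAAT boxes activates them. Genes of S phase are better known for E2F sites.

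The promoters of the set show this division in their letters as a group, though not in every gene. Of them 6 are printed, from genes of chromosome structure, mitotic cyclins, the anaphase group and replication licensing. They are examples and hold no gene of the G1/S, DNA synthesis, centromere or spindle motor groups. Promoters came from RefSeq on GRCm38.p6, from 250 bases before to 50 bases after the annotated start, and 40 of the 49 genes matched 43 promoters. The stretch printed is the 200 bases before the start, read 5′ to 3′ on the gene's own strand. Capitals mark a CCAAT box (CCAAT), a CHR (TTTGAA or TTCGAA) or an E2F match (TTCCCGC or TTCGCGC or TTGCCGC or TTGGCGC), on either strand, and matches that overlap were each counted. The proliferation marker Mki67 lies at chr7:135716380-135716579 on the minus strand, the topoisomerase gene Top2a at chr11:99024190-99024389 on the minus strand and the B cyclin gene Ccnb2 at chr9:70421555-70421754 on the minus strand. The anaphase activator gene Cdc20 lies at chr4:118437344-118437543 on the minus strand. The helicase genes Mcm5 and Mcm6 lie at chr8:75109309-75109508 on the plus strand and chr1:128359706-128359905 on the minus strand.
Mki67: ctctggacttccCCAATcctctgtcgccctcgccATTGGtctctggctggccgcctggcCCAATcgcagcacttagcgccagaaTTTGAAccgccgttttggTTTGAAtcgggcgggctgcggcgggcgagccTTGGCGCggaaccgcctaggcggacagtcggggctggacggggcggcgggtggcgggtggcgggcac
Top2a: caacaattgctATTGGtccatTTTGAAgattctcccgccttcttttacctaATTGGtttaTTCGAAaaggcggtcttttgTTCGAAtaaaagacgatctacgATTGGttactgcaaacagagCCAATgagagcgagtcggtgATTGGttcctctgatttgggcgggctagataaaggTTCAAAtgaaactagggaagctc
Ccnb2: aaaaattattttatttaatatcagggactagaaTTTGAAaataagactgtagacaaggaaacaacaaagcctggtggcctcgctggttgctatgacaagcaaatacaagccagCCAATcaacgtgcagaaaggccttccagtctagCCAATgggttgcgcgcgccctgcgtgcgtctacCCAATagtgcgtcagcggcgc
Cdc20: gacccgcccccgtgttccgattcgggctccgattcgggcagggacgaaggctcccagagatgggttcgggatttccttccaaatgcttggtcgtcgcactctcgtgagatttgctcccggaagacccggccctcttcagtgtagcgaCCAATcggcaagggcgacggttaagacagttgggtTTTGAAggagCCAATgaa
Mcm5: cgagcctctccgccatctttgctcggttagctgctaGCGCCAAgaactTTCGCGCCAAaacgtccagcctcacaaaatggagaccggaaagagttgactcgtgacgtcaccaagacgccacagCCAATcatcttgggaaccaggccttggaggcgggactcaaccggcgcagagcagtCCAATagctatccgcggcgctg
Mcm6: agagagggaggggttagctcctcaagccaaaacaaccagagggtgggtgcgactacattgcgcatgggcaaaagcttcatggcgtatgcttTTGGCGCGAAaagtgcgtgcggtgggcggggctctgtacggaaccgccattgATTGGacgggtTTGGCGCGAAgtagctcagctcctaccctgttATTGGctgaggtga

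Top2a carried 5 CCAAT boxes and 4 CHR matches in the stretch shown, and Mki67 carried 3 CCAAT boxes, 2 CHR matches and 1 E2F match. Mcm5 and Mcm6 carried 3 and 4 E2F matches there and no CHR. Among promoters of the mitotic genes, 82.1% of 28 held a CHR, against 13.3% of 15 for the S phase genes and 19.2% of all 32851 promoters of the same length. An E2F match was in 21.4% of the mitotic, 60.0% of the S phase and 9.57% of all promoters. A CCAAT box was in 85.7%, 60.0% and 37.4%, and a CCAAT box together with a CHR in 78.6%, 13.3% and 7.52%. The S phase genes Ccne1, E2f1, Mcm2, Pcna, Tk1 and Tyms held no E2F match. The mitotic genes Birc5, Melk and Nusap1 held no match of any kind. A match of this kind describes the letters and is not evidence of binding.

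Signals are given as log2 of the processed signal relative to the 75th percentile of the same array, so 0 is that percentile, and a level is not compared between probes of different genes. Between 70.7% and 87.0% of the probes of an array were well above background and none was saturated. Slide 1 held the arrays of the 3 control mice, the 3 mice at 20 ppm and 500 ppm mice 1 and 2, and slide 2 held the other 7. Slide and diet therefore cannot be told apart at 2500 and 5000 ppm, apart from 500 ppm mouse 3. That array and 2500 ppm mouse 3 stood apart on the first principal component over all genes (36.3% of variance), and both carry an extraction status of 1 in the files where the other arrays carry 0. Control mouse 1 and 20 ppm mouse 1 stood apart on the second component (17.9%). Markers of lung epithelium were bright in each of the 15 arrays, with the linear signals of 7 alveolar type 2 markers summing to between 1047 and 1323 times the array's 75th percentile, and those of 6 club cell markers to between 1863 and 3906 times.

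No gene of the set passed the threshold of an adjusted p of 0.05 at any dose. At 5000 ppm, where 0.0407% of all genes passed, 0 of the 46 measured did, and the smallest adjusted p was 0.963. At 20, 500 and 2500 ppm 0 of 46 passed, where 0% of all genes did, with a smallest adjusted p of 1, 0.941 and 0.345. Nor did any pass between 5000 and 2500 ppm (0% of all genes, smallest adjusted p 0.946), on a trend over the 5 dose ranks (0.142% of all genes, 0.526) or in an F test for any difference among diets (0.0407% of all genes, 0.976). In the F test, 0 of 46 had an unadjusted p under 0.05, where 5.35% of all genes did. A higher value at an unadjusted p under 0.05 was found for 0 of 46 at 20, 500, 2500 and 5000 ppm, beside 0.506%, 2.05%, 5.51% and 3.04% of all genes. At 5000 ppm a lower one was found for 0 of 46 (2.1% of all genes). Between 5000 and 2500 ppm Ccne1 alone was higher at that level, 1 of 46 beside 1.78%, and 0 were lower, beside 3.25%. On the trend Cdt1 and Bub1 were lower, 2 of 46 beside 3.45%, and 0 were higher, beside 5.75%.

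The differences from the control diet nevertheless lay mostly below 0. Their median over the 46 genes was -0.12 (log2) at 20 ppm, -0.29 at 500 ppm, -0.13 at 2500 ppm and -0.07 at 5000 ppm. Over all genes the medians were -0.03, 0.12, 0.05 and 0.07. Of the 46, 38 lay below 0 at 20 ppm, where 55.5% of all genes did, and 38 at 500 ppm, where 29.6% did. At 2500 ppm 31 did, beside 42.7% of all genes, and at 5000 ppm 36 did, beside 39.4%. Among the 46, Kif2c was kept only through the control diet, which favours a value below 0. With the filter over all 15 arrays, 36, 35, 28 and 33 of 43 lay below 0 from the lowest to the highest dose. The shares of all genes so kept were 53%, 30.6%, 41.9% and 37.6%. The medians did not follow dose order, since the lowest was at 500 ppm and the one nearest 0 at 5000 ppm. Between 5000 and 2500 ppm the median was 0.03, as it was over all genes, with 19 of 46 below 0 (44.6% of all genes). The 4 comparisons with the control diet share the same 3 control mice, and genes of this set are read from the same 15 lungs, so neither doses nor genes count as independent of one another.

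**Figure D1:**
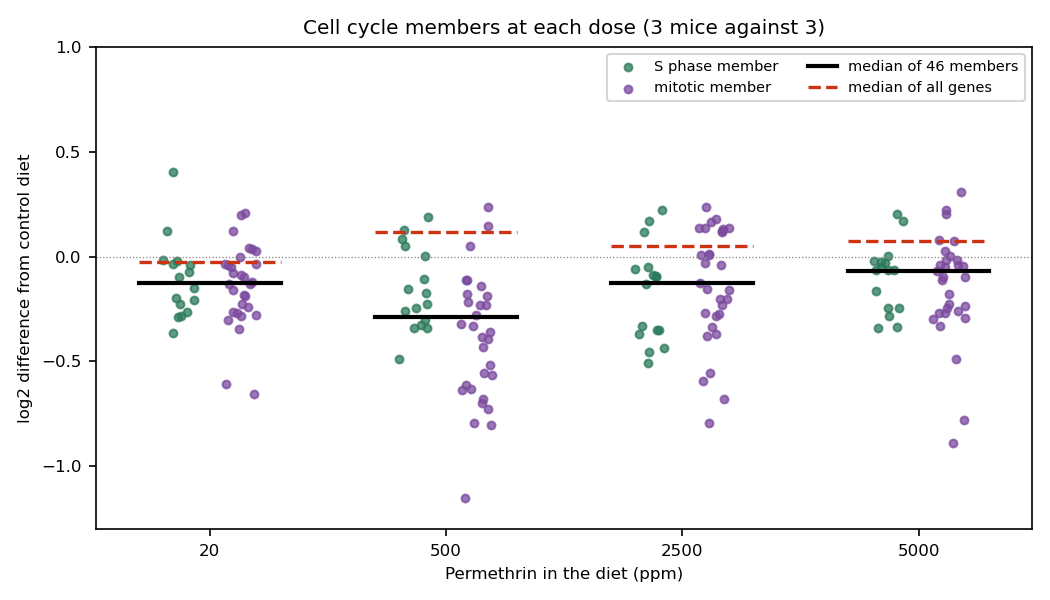
Log2 difference from the control diet (y axis) of each of the 46 measured genes at 20, 500, 2500 and 5000 ppm (x axis), 3 mice against 3, with S phase genes in green and mitotic genes in purple. The black line is the median of the 46 and the red dashed line that of all genes, and the distance between them is widest at 500 ppm (-0.29 against 0.12).

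At 500 ppm the 3 treated mice all lay below the 3 control mice for 15 of the 46 genes, a pattern that 2.15% of all genes showed, and lay above them for 0 of 46 (4.53% of all genes). The 15 were Cdt1, Mcm2, Mcm5, Gins2, Pcna, Tk1, Ccna2, Pbk, Cenpe, Birc5, Cdca8, Prc1, Mki67, Top2a and Ncapg, which hold members of 6 of the 8 role groups. The 30 mitotic genes had a median of -0.37 with 27 below 0 and 9 not overlapping, and the 16 S phase genes a median of -0.20 with 11 below 0 and 6 not overlapping. An unadjusted p under 0.05 with a lower value was found for 3 of 46, where 0.788% of all genes had one, and these were Ube2c, Mki67 and Nusap1. Mki67, the standard marker of cycling cells, was 1.55-fold lower (log2 -0.63 ± 0.28 SE, adjusted p = 0.941). Ube2c, the ubiquitin-conjugating enzyme of the anaphase promoting complex, was 1.73-fold lower (-0.79 ± 0.27, adjusted p = 0.941). Nusap1, a spindle microtubule protein, was 1.56-fold lower (-0.64 ± 0.29, adjusted p = 0.941).

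Single mice moved these counts. Without 500 ppm mouse 3, which leaves 500 ppm mice 1 and 2 and the control mice of the same slide, the median was -0.41 with 41 of 46 below 0 and 27 not overlapping, beside 11.4% of all genes. Without control mouse 1 it was -0.38 with 27 not overlapping, beside 8.8% of all genes, and without control mouse 2 it was -0.20 with 15 (3.1%). Fewer mice make groups overlap less for every gene, which the shares of all genes show. With the array median as the scale in place of the 75th percentile, the median of all genes at 500 ppm moved from 0.12 to -0.11 and that of the 46 from -0.29 to -0.52, and 10 of 46 did not overlap, beside 2.74% of all genes.

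At the other doses few genes stood clear of the controls. The 3 mice at 20 ppm lay below the controls for Gins2, Tk1 and Nusap1, 3 of 46 beside 4.33% of all genes, and above them for Rrm1, 1 of 46 beside 1.51%. At 2500 ppm Ccne1 and Cdt1 lay below, 2 of 46 beside 4.74% of all genes, and 0 above, beside 8.8%. At 5000 ppm Gins2 and Bub1 lay below, 2 of 46 beside 4.99%, and 0 above, beside 12.9%. Between 5000 and 2500 ppm Aurkb lay lower at 5000 ppm, 1 of 46 beside 7.08% of all genes, and Cdt1 higher, 1 of 46 beside 8.15%.

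The larger part of the variation lay between mice on the same diet. The mitotic genes as a group were highest in 2500 ppm mouse 2 and in 5000 ppm mouse 1, where their median deviation from each gene's own mean over 15 arrays was 0.62 and 0.60 (log2), and next highest in control mouse 2 (0.37) and 20 ppm mouse 2 (0.26). The group was lowest in 500 ppm mouse 1 (-0.53), 500 ppm mouse 2 (-0.31), 2500 ppm mouse 3 (-0.27) and 5000 ppm mouse 3 (-0.26). S phase genes had the same 3 arrays at the top over a narrower span, with 0.27 in control mouse 2, 0.24 in 5000 ppm mouse 1 and 0.20 in 2500 ppm mouse 2, and -0.20 in 2500 ppm mouse 3 at the bottom. Over all genes the same quantity ran from -0.26 in 20 ppm mouse 1 to 0.12 in 500 ppm mouse 3.

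Against its diet mates, 2500 ppm mouse 2 was the higher by a median of 1.77-fold for the mitotic and 1.25-fold for the S phase genes, and it lay above both mates for 39 of the 46. The corresponding values for 5000 ppm mouse 1 were 1.70-fold, 1.27-fold and 41 of 46, and control mouse 2 lay above both mates for 36. Array by array, 2500 ppm mouse 2 was the highest of all 15 for 18 genes, 5000 ppm mouse 1 for 9 and control mouse 2 for 8, while 500 ppm mouse 1 was the lowest for 14. The doses with the highest single mice were therefore also doses with mice among the lowest.

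Medians shifted when 1 mouse was left out. At 20 ppm the median was -0.12 with all mice and -0.02 without control mouse 2, with 25 of 46 below 0 (48.2% of all genes). Without control mouse 1 it was -0.20 with 13 of 46 below all remaining controls (17.1%), and without 20 ppm mouse 2 it was -0.23 with 11 (8.91%). At 2500 ppm the median was -0.13 with all mice, -0.36 without mouse 2, with 21 of 46 below all controls (7.2% of all genes), and -0.02 without mouse 3. At 5000 ppm it was -0.07 with all mice, -0.31 without mouse 1, with 43 of 46 below 0 and 15 below all controls (8.1% of all genes), and -0.01 without mouse 3. Without control mouse 2 it was 0.00 at both doses, and without control mouse 1 it was -0.24 at 2500 ppm and -0.18 at 5000 ppm. Between 5000 and 2500 ppm it was 0.03 with all mice. Leaving out 2500 ppm mouse 2 gave 0.24, and leaving out 5000 ppm mouse 3 gave 0.13. The sign turned on leaving out 5000 ppm mouse 1 (-0.14), 2500 ppm mouse 3 (-0.13) or 2500 ppm mouse 1 (-0.035). The mice that stand out here were seen in these values, so a median that leaves 1 of them out moves in a known direction.

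**Figure D2:**
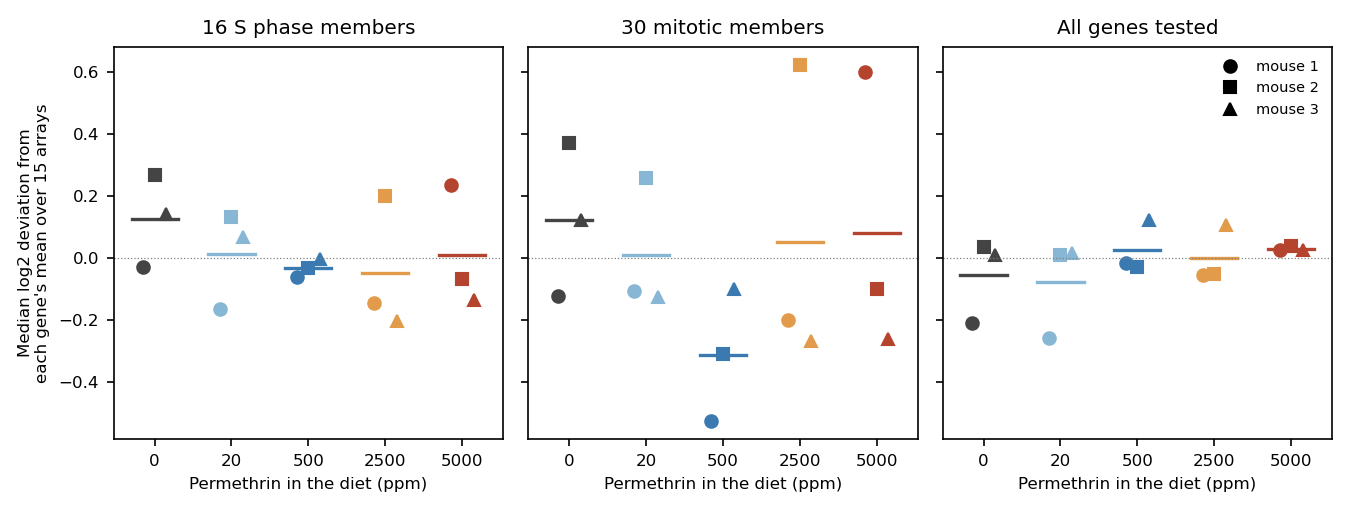
Median log2 deviation of each array from each gene's own mean over the 15 arrays (y axis) for the 16 S phase genes, the 30 mitotic genes and all genes tested, by permethrin in the diet (x axis). Circles, squares and triangles are mice 1, 2 and 3 and the short lines are diet means, and 2500 ppm mouse 2 and 5000 ppm mouse 1 stand highest in the mitotic panel at 0.62 and 0.60.

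The span from the lowest to the highest of the 15 arrays had a median of 2.74-fold over the 30 mitotic genes and 1.82-fold over the 16 S phase genes. Without Pbk, Kif11 and Kif2c, whose probes were not above background on every array, it was 2.68-fold over 27 mitotic genes. Over the 43 genes above background on all 15 arrays, the median span by role was 3.32-fold for chromosome structure, 3.26-fold for centromere and passenger genes, 2.85-fold for spindle motors and cytokinesis, 2.74-fold for mitotic cyclins and kinases and 2.30-fold for the checkpoint group. For spindle motors it was 3.81-fold with Kif11 and Kif2c counted. Licensing genes spanned 1.87-fold, synthesis genes 1.70-fold and the G1/S regulators 1.64-fold. The residual SD between mice of a diet had a median of 0.43 (log2; 0.42 without these 3) for the mitotic and 0.24 for the S phase genes, beside 0.31 for all genes. Measured genes with a CHR in a promoter (21) had a median deviation of 0.45 in 2500 ppm mouse 2, 0.56 in 5000 ppm mouse 1 and -0.39 in 500 ppm mouse 1, and those with a promoter but no CHR (17) had 0.26, 0.26 and -0.17. With a CCAAT box (28) it was 0.44, 0.46 and -0.35, and without (10) 0.15, 0.20 and -0.23. With an E2F match (13) it was 0.33, 0.26 and -0.05, and without (25) 0.44, 0.54 and -0.39. These 3 arrays were picked from the same values. Of the 25 promoters of the set with a CHR, 23 were of mitotic genes. The CHR split therefore largely repeats that of mitotic and S phase genes.

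**Figure D3:**
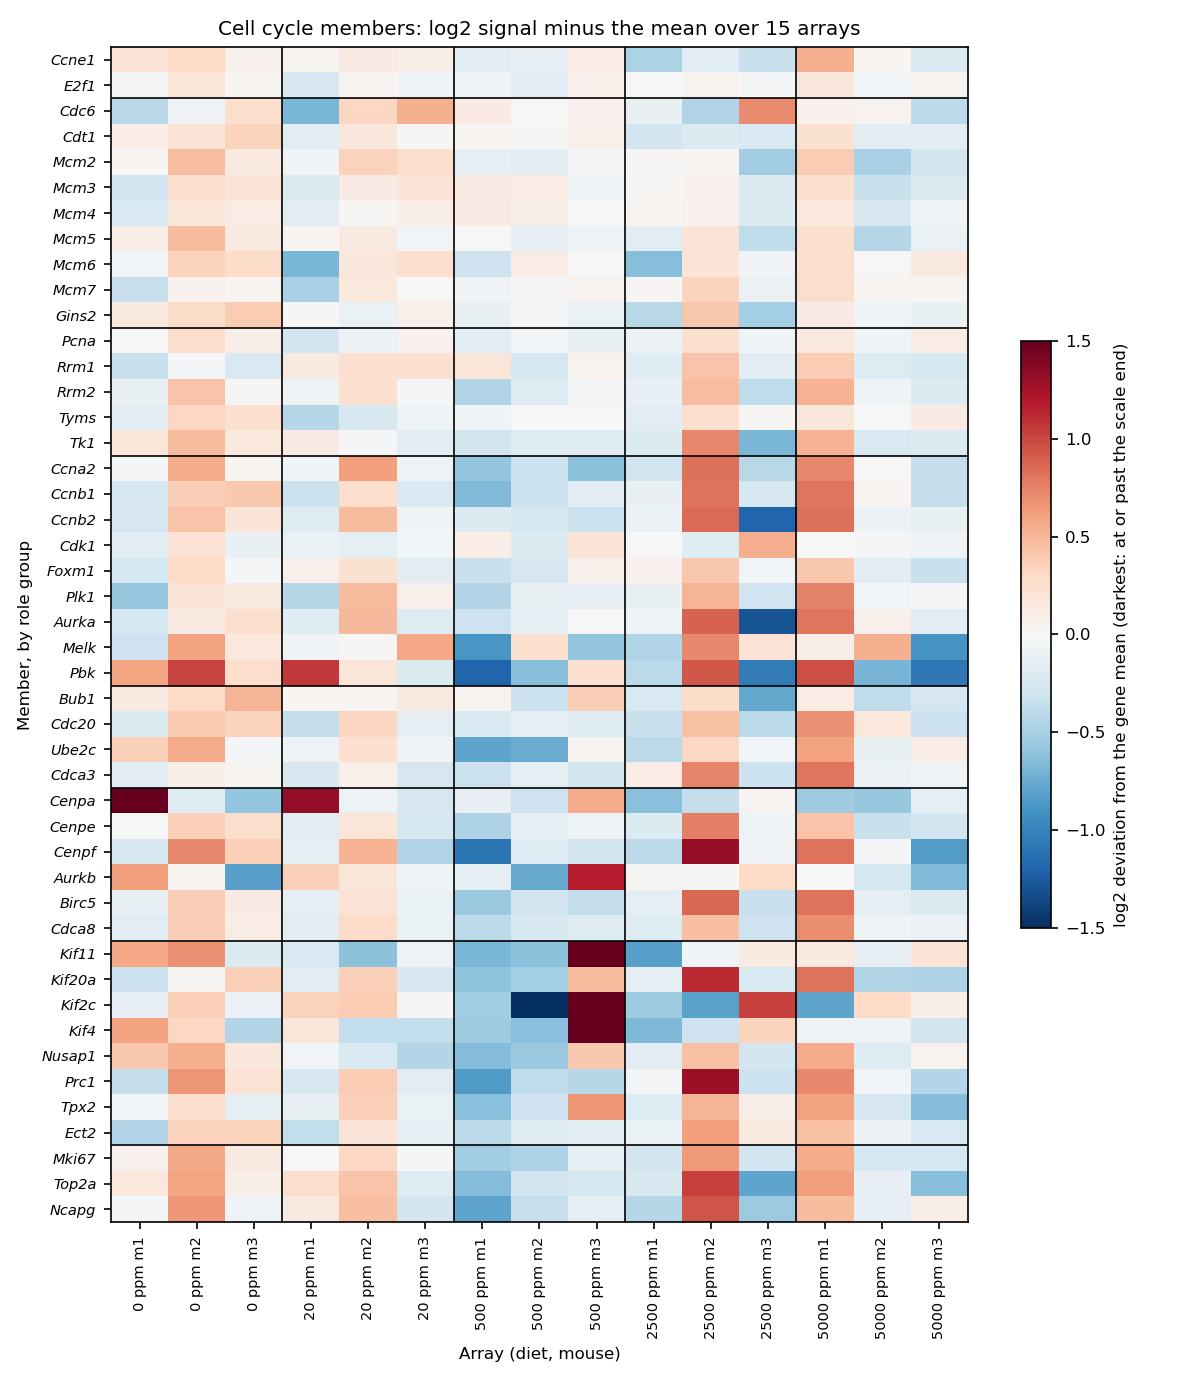
Log2 signal minus the gene's mean over the 15 arrays (colour, from -1.5 to 1.5) for the 46 measured genes (rows, in 8 role groups divided by black lines) and the 15 arrays (columns, by diet and mouse). Most rows of the mitotic groups share red columns at 2500 ppm mouse 2 and 5000 ppm mouse 1, and Cdk1, Cenpa, Aurkb, Kif11, Kif2c and Kif4 are among those that do not.

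Among regulators of S phase entry, Ccne1, the E-type cyclin that activates Cdk2, had its lowest values at 2500 ppm. In mice 1, 2 and 3 its signal was -1.37, -1.28 and -1.5 on the control diet, -1.52, -1.44 and -1.48 at 20 ppm, -1.74, -1.69 and -1.45 at 500 ppm, -2.04, -1.74 and -1.89 at 2500 ppm and -1.03, -1.54 and -1.77 at 5000 ppm. All 3 mice at 2500 ppm lay below all 3 controls, by 1.42-fold (log2 -0.51 ± 0.18 SE, adjusted p = 0.4), while 5000 ppm mouse 1 was the highest array of all. At 5000 ppm the difference from control was -0.06 ± 0.18. E2f1, a transcription factor that switches on S phase genes, had signals of -0.15, 0.05 and -0.11 on the control diet, -0.37, -0.09 and -0.20 at 20 ppm, -0.18, -0.30 and -0.06 at 500 ppm, -0.14, -0.08 and -0.17 at 2500 ppm and 0.04, -0.17 and -0.08 at 5000 ppm. Its groups overlapped throughout within a span of 0.42, the narrowest of the set beside that of Mcm4, and its difference at 5000 ppm was 0.00 ± 0.13.

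Replication licensing was led by Cdt1, which loads the helicase at origins and had the smallest p of the set at 2500 ppm and on the trend. Its signals were 1.11, 1.20 and 1.34 on the control diet, 0.84, 1.17 and 1.01 at 20 ppm, 1.03, 1.02 and 1.07 at 500 ppm, 0.73, 0.79 and 0.77 at 2500 ppm and 1.23, 0.84 and 0.84 at 5000 ppm. The 3 values at 2500 ppm lay close together and below every array of the other diets, and the difference from control was -0.45 ± 0.14 (1.37-fold lower, adjusted p = 0.345). At 5000 ppm mouse 1 was as high as the controls while mice 2 and 3 were not, with a difference of -0.25 ± 0.14 (adjusted p = 0.963). Mcm2, a subunit of the MCM helicase, had signals of -0.30, 0.13 and -0.18 on the control diet, -0.40, 0.02 and -0.07 at 20 ppm, -0.46, -0.51 and -0.36 at 500 ppm, -0.31, -0.30 and -0.86 at 2500 ppm and 0.05, -0.82 and -0.60 at 5000 ppm. At 500 ppm all 3 lay below the controls, and at 5000 ppm mouse 1 lay within the control range and mice 2 and 3 below it (-0.34 ± 0.23, adjusted p = 0.966).

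Mcm7, a further helicase subunit, had the highest positive difference of its group at 5000 ppm, with signals of 1.69, 2.10 and 2.06 on the control diet, 1.55, 2.20 and 2.05 at 20 ppm, 1.98, 2.01 and 2.09 at 500 ppm, 2.05, 2.37 and 1.94 at 2500 ppm and 2.29, 2.08 and 2.08 at 5000 ppm. Control mouse 1 and 20 ppm mouse 1 were its lowest arrays, the diets overlapped, and the difference was 0.20 ± 0.19 (adjusted p = 0.97). On the brightest probe of each of the 6 helicase subunits, over the 4 doses, the largest difference was that of Mcm2 at 2500 ppm (1.29-fold lower, adjusted p = 0.748). Mcm5, whose promoter is printed above with its E2F matches, stood at -0.20 ± 0.19, -0.30 ± 0.19, -0.35 ± 0.19 and -0.34 ± 0.19 at the 4 doses, and Mcm6 at -0.28 ± 0.26, -0.26 ± 0.26, -0.35 ± 0.26 and -0.05 ± 0.26. Mcm3 and Mcm4 stayed between -0.16 and 0.05 on their brightest probes. The dimmest kept probe of Mcm3, above background on all 15 arrays, gave -0.51 at 2500 ppm and -0.59 at 5000 ppm. The GINS subunit gene Gins2 lay below the controls in all 3 mice at 20, 500 and 5000 ppm (differences -0.26 ± 0.21, -0.34 ± 0.21 and -0.28 ± 0.21), and 2500 ppm mouse 2 (-0.20) was its highest array. Cdc6, which recruits the helicase, had its highest value in 2500 ppm mouse 3 and its lowest in 20 ppm mouse 1, and differed from control by -0.02 ± 0.34 at 5000 ppm.

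DNA synthesis genes gave small and mixed differences. Pcna, the sliding clamp of the replicative polymerases, read 3.35, 3.62 and 3.46 on the control diet, 3.07, 3.27 and 3.42 at 20 ppm, 3.19, 3.31 and 3.25 at 500 ppm, 3.26, 3.59 and 3.29 at 2500 ppm and 3.50, 3.29 and 3.46 at 5000 ppm. At 500 ppm all 3 mice lay just below the lowest control (-0.23 ± 0.15, adjusted p = 0.941), and at 5000 ppm the groups overlapped (-0.06 ± 0.15). Rrm1, the large subunit of ribonucleotide reductase, read 0.41, 0.72 and 0.53 on the control diet, 0.88, 1.01 and 0.99 at 20 ppm, 0.93, 0.49 and 0.81 at 500 ppm, 0.57, 1.18 and 0.58 at 2500 ppm and 1.13, 0.56 and 0.49 at 5000 ppm. The 3 mice at 20 ppm lay above all controls (0.41 ± 0.21, adjusted p = 1), and it was the one member of its group with positive differences at all 4 doses, among them 0.17 ± 0.21 at 5000 ppm. Rrm2, the small subunit, made mainly in S phase, read 0.28, 0.82 and 0.41 on the control diet, 0.31, 0.63 and 0.36 at 20 ppm, -0.06, 0.20 and 0.36 at 500 ppm, 0.26, 0.85 and 0.01 at 2500 ppm and 0.91, 0.32 and 0.19 at 5000 ppm. Its highest arrays were 5000 ppm mouse 1, 2500 ppm mouse 2 and control mouse 2, and its lowest was 500 ppm mouse 1.

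Tyms, thymidylate synthase, had the smallest p of the set at 20 ppm. Its signals were 1.14, 1.62 and 1.56 on the control diet, 0.89, 1.08 and 1.26 at 20 ppm, 1.24, 1.31 and 1.31 at 500 ppm, 1.15, 1.57 and 1.33 at 2500 ppm and 1.49, 1.32 and 1.44 at 5000 ppm. At 20 ppm mice 1 and 2 lay below the controls and mouse 3 within their range (-0.36 ± 0.17, 1.29-fold lower, adjusted p = 1), and it was 1 of 46 with a lower value at an unadjusted p under 0.05, beside 0.968% of all genes. Tk1, the thymidine kinase of dividing cells, read -0.54, -0.24 and -0.56 on the control diet, -0.59, -0.73 and -0.89 at 20 ppm, -1.0, -0.91 and -0.91 at 500 ppm, -0.93, 0.00 and -1.41 at 2500 ppm and -0.20, -0.95 and -0.93 at 5000 ppm. Every mouse at 20 and 500 ppm lay below every control (-0.29 ± 0.30 and -0.49 ± 0.30), whereas at 2500 and 5000 ppm 1 mouse of each diet lay above all controls and the other 2 below all of them (-0.33 ± 0.30 and -0.24 ± 0.30, adjusted p = 0.877 and 0.97).

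Cyclins of mitosis differed between mice of a diet. Ccna2, cyclin A2 of S phase and early mitosis, read -1.29, -0.71 and -1.24 on the control diet, -1.34, -0.66 and -1.35 at 20 ppm, -1.85, -1.59 and -1.89 at 500 ppm, -1.58, -0.45 and -1.69 at 2500 ppm and -0.55, -1.27 and -1.63 at 5000 ppm. All 3 mice at 500 ppm lay below all controls, by 1.62-fold (log2 -0.70 ± 0.35 SE, adjusted p = 0.941). At 2500 and 5000 ppm a single mouse of each diet was above every control and the other 2 were near or below the lowest (-0.16 ± 0.35 and -0.07 ± 0.35). Ccnb1, cyclin B1, the partner of Cdk1, read -1.80, -1.18 and -1.15 on the control diet, -1.87, -1.29 and -1.77 at 20 ppm, -2.21, -1.87 and -1.71 at 500 ppm, -1.67, -0.74 and -1.81 at 2500 ppm and -0.74, -1.52 and -1.91 at 5000 ppm. Its highest arrays were those of Ccna2 (2500 ppm mouse 2 and 5000 ppm mouse 1), 500 ppm mouse 1 was its lowest, and its groups overlapped, with a difference of -0.56 ± 0.34 at 500 ppm (adjusted p = 0.941) and -0.02 ± 0.34 at 5000 ppm. Ccnb2, cyclin B2, spanned 2.04 (log2) between 2500 ppm mouse 2 at 1.22 and 2500 ppm mouse 3 at -0.82, so both its extremes lay within 1 diet.

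Cdk1, the mitotic kinase itself, did not share that order on its probe. Its signals were -1.86, -1.47 and -1.80 on the control diet, -1.79, -1.84 and -1.73 at 20 ppm, -1.59, -1.90 and -1.49 at 500 ppm, -1.69, -1.87 and -1.14 at 2500 ppm and -1.70, -1.70 and -1.77 at 5000 ppm, with 2500 ppm mouse 3 highest and 2500 ppm mouse 2 near the lowest, and a difference of -0.02 ± 0.19 at 5000 ppm. Its second probe was above background on 3 of 15 arrays and was not used. Plk1, the polo kinase of mitotic entry, read -0.83, -0.07 and -0.13 on the control diet, -0.69, 0.21 and -0.19 at 20 ppm, -0.70, -0.38 and -0.38 at 500 ppm, -0.37, 0.25 and -0.56 at 2500 ppm and 0.48, -0.31 and -0.29 at 5000 ppm. It had the largest positive difference of its group at 5000 ppm (0.31 ± 0.31, adjusted p = 0.97), carried by mouse 1, with mice 2 and 3 inside the control range. Among the brightest probes, that of Pbk, a mitotic kinase, had the largest negative differences of the set at 500, 2500 and 5000 ppm. This probe was dim, above background on 13 of 15 arrays. A dimmer second probe of Top2a lay lower at 2500 and 5000 ppm.

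The Pbk signals were -3.19, -2.77 and -3.52 on the control diet, -2.72, -3.59 and -4.0 at 20 ppm, -4.97, -4.42 and -3.54 at 500 ppm, -4.18, -2.86 and -4.83 at 2500 ppm and -2.82, -4.48 and -4.85 at 5000 ppm. At 500 ppm all 3 mice lay below all controls (-1.15 ± 0.60, adjusted p = 0.941). At 5000 ppm mouse 1 was near the highest control and mice 2 and 3 lay below the lowest (-0.89 ± 0.60, adjusted p = 0.966). Aurka, the spindle pole kinase, had its highest value in 2500 ppm mouse 2 (0.73) and its lowest in 2500 ppm mouse 3 (-1.45). Foxm1, the transcription factor of the mitotic programme, stayed within 0.74 (log2) over all arrays, with differences of -0.18 ± 0.23 at 500 ppm and -0.04 ± 0.23 at 5000 ppm. Melk, a kinase of cycling cells on a dim probe, differed by -0.56 ± 0.42 and -0.24 ± 0.42 at these doses.

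Of the checkpoint and anaphase genes, Bub1, a checkpoint kinase at the kinetochore, had the smallest p of the set at 5000 ppm. Its signals were -2.10, -1.93 and -1.72 on the control diet, -2.20, -2.19 and -2.09 at 20 ppm, -2.18, -2.55 and -1.86 at 500 ppm, -2.46, -1.96 and -3.0 at 2500 ppm and -2.12, -2.61 and -2.48 at 5000 ppm. The 3 mice at 5000 ppm lay below all controls by 1.4-fold (-0.49 ± 0.25, adjusted p = 0.963), the margin between mouse 1 and the lowest control being small. At 2500 ppm the difference was -0.55 ± 0.25 (adjusted p = 0.577), and Bub1, Cdt1 and Ccne1 were the 3 of 46 with a lower value at an unadjusted p under 0.05 there, beside 2.99% of all genes. Ube2c read -0.43, -0.23 and -0.80 on the control diet, -0.86, -0.53 and -0.85 at 20 ppm, -1.57, -1.53 and -0.73 at 500 ppm, -1.17, -0.47 and -0.82 at 2500 ppm and -0.18, -0.89 and -0.67 at 5000 ppm. At 500 ppm mice 1 and 2 were the lowest arrays of all and mouse 3 lay inside the control range.

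Cdca3, which triggers degradation of Wee1 at mitotic entry, read -1.06, -0.81 and -0.86 on the control diet, -1.14, -0.82 and -1.15 at 20 ppm, -1.22, -1.03 and -1.17 at 500 ppm, -0.79, -0.17 and -1.22 at 2500 ppm and -0.10, -0.98 and -0.97 at 5000 ppm. The highest arrays were 5000 ppm mouse 1 and 2500 ppm mouse 2, and the difference at 5000 ppm was 0.22 ± 0.27 (adjusted p = 0.97). Cdc20, the activator whose CCAAT and CHR promoter is shown above, was highest in 5000 ppm mouse 1 (1.51), 2500 ppm mouse 2 (1.26) and control mouse 2 (1.22), and lowest in 2500 ppm mouse 3 (0.42). Its differences were -0.23 ± 0.29, -0.36 ± 0.29, -0.27 ± 0.29 and 0.00 ± 0.29 from the lowest to the highest dose.

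In the centromere and passenger group, Cenpa, the histone H3 variant of the centromere, departed from the others. Its probe read -0.85, -2.92 and -3.30 on the control diet, -1.40, -2.80 and -2.98 at 20 ppm, -2.85, -3.03 and -2.17 at 500 ppm, -3.35, -3.08 and -2.69 at 2500 ppm and -3.26, -3.29 and -2.86 at 5000 ppm. Control mouse 1 and 20 ppm mouse 1 stood more than 1 log2 unit above every other array except 500 ppm mouse 3, which lay between, and these 2 are the arrays set apart on the second component over all genes. The difference at 5000 ppm of -0.78 ± 0.56 (adjusted p = 0.966) became -0.03 without control mouse 1. Birc5, survivin, a subunit of the chromosomal passenger complex, read 1.02, 1.51 and 1.26 on the control diet, 1.0, 1.35 and 1.05 at 20 ppm, 0.58, 0.87 and 0.79 at 500 ppm, 1.01, 2.0 and 0.81 at 2500 ppm and 1.96, 0.99 and 0.93 at 5000 ppm. All 3 mice at 500 ppm lay below all controls (-0.52 ± 0.32, adjusted p = 0.941), and 2500 ppm mouse 2 and 5000 ppm mouse 1 were the highest arrays. Its means at the 2 top doses were near the control mean (0.01 ± 0.32 and 0.03 ± 0.32).

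Cdca8, borealin of the same complex, read -0.43, 0.10 and -0.16 on the control diet, -0.43, 0.02 and -0.37 at 20 ppm, -0.66, -0.51 and -0.46 at 500 ppm, -0.46, 0.18 and -0.58 at 2500 ppm and 0.42, -0.33 and -0.36 at 5000 ppm. The order of the arrays was close to that of Birc5, with all 3 mice at 500 ppm below all controls (-0.38 ± 0.25) and a difference of 0.07 ± 0.25 at 5000 ppm (adjusted p = 0.981). Aurkb, the kinase of the complex, did not follow them, and its dim probe was highest in 500 ppm mouse 3 (-2.56) and lowest in control mouse 3 (-4.55). Cenpe and Cenpf, proteins of the kinetochore, were both highest in 2500 ppm mouse 2 (-0.15 and -0.38) and lowest in 500 ppm mouse 1 (-1.37 and -2.79).

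The spindle motor Kif4, a chromosome-bound kinesin, had its largest value in 1 array. Its signals were -3.36, -3.66 and -4.40 on the control diet, -3.79, -4.33 and -4.34 at 20 ppm, -4.49, -4.59 and -1.63 at 500 ppm, -4.64, -4.28 and -3.64 at 2500 ppm and -4.04, -4.04 and -4.24 at 5000 ppm. The array of 500 ppm mouse 3, which stood apart over all genes, was the highest, followed by control mouse 1, and the difference at 5000 ppm was -0.30 ± 0.62 (adjusted p = 0.97). The same array was the highest for the mitotic kinesins Kif11 (-2.76) and Kif2c (-2.78) and for the spindle assembly factor Tpx2 (-1.96). Kif11 was above background on 12 of 15 arrays and Kif2c on 6 of 15, with 0 of 3 at 5000 ppm, and for Kif2c no fold could be given against that diet. Prc1, a cytokinesis protein of the central spindle, and Kif20a, a kinesin of the same structure, followed the general order with 2500 ppm mouse 2 highest (0.97 and -0.44) and 500 ppm mouse 1 lowest (-1.17 and -2.16). Ect2, which activates RhoA for cytokinesis, was also highest in 2500 ppm mouse 2 (-1.18) and lowest in control mouse 1 (-2.23).

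Chromosome structure genes had the lowest group median of the 8 roles at 500 ppm, -0.63 over 3 genes, all of them with the treated mice below the controls. Mki67 read 0.78, 1.29 and 0.85 on the control diet, 0.71, 1.04 and 0.69 at 20 ppm, 0.20, 0.25 and 0.58 at 500 ppm, 0.45, 1.36 and 0.43 at 2500 ppm and 1.28, 0.46 and 0.45 at 5000 ppm. Its 3 mice at 500 ppm lay below the lowest control, 2500 ppm mouse 2 and 5000 ppm mouse 1 were level with control mouse 2, and the other mice of the 2 top doses lay below all controls. The differences were -0.16 ± 0.28, -0.63 ± 0.28, -0.23 ± 0.28 and -0.24 ± 0.28 at 20, 500, 2500 and 5000 ppm. Top2a, topoisomerase II alpha, which untangles sister chromatids, read -1.14, -0.70 and -1.21 on the control diet, -1.04, -0.87 and -1.49 at 20 ppm, -1.95, -1.57 and -1.56 at 500 ppm, -1.53, -0.27 and -2.09 at 2500 ppm and -0.67, -1.43 and -1.94 at 5000 ppm. All 3 mice at 500 ppm lay below all controls, 2500 ppm mouse 2 was the highest array and 2500 ppm mouse 3 the lowest, with differences of -0.68 ± 0.41 at 500 ppm (adjusted p = 0.941) and -0.33 ± 0.41 at 5000 ppm (adjusted p = 0.97). Ncapg, a condensin subunit, differed by -0.61 ± 0.37 at 500 ppm and -0.04 ± 0.37 at 5000 ppm, and its lowest array was 500 ppm mouse 1 (-2.36).

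**Figure D4:**
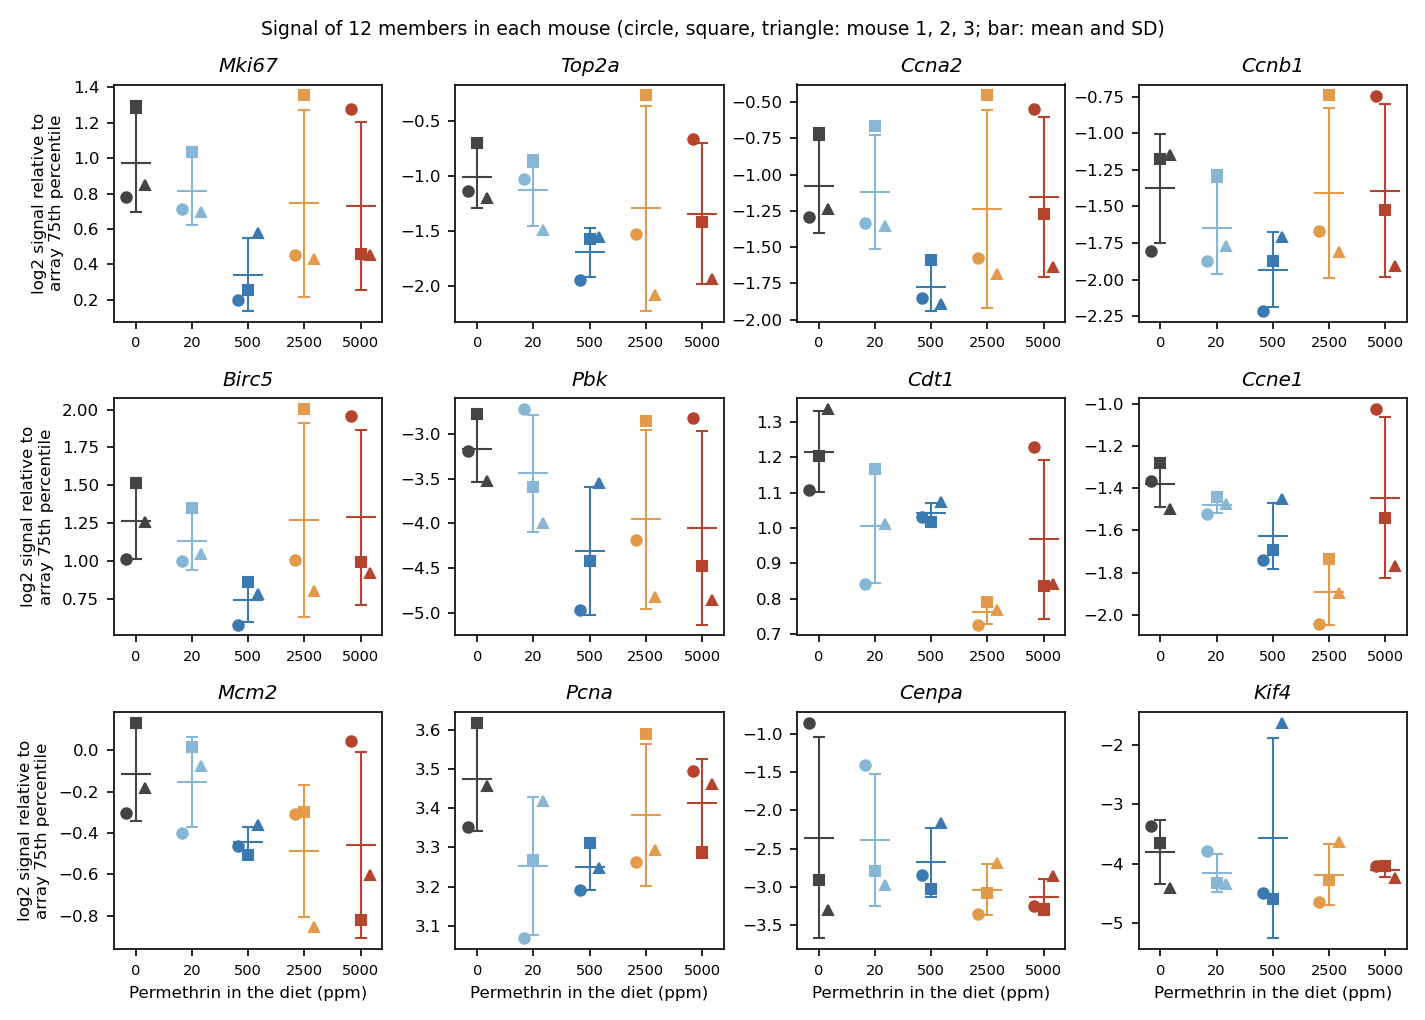
Log2 signal relative to the array's 75th percentile (y axis, a separate scale for each panel) of 12 genes of the set in each mouse, by permethrin in the diet in ppm (x axis). Circle, square and triangle are mice 1, 2 and 3 and the bars are mean and SD of 3 mice. In the panels of Mki67, Top2a, Ccna2, Ccnb1 and Birc5 1 mouse at 2500 ppm and 1 at 5000 ppm stand well above their diet mates.

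Different probes of a gene did not always side together. Among the 14 genes with several probes kept, the probes differed in the sign of the difference for 3 at 20 ppm, 5 at 500 ppm, 4 at 2500 ppm and 6 at 5000 ppm. At 500 ppm these were Ccnb1, Cdca8, Cenpf, Gins2 and Mcm3. For Ccnb1 the brighter probe gave -0.56 and a dimmer one 0.76 at 500 ppm, and for Birc5 the brighter gave 0.03 and the dimmer -0.40 at 5000 ppm. Probes of like sign could differ in size. For Top2a the brighter gave -0.28 at 2500 ppm and -0.33 at 5000 ppm. The dimmer, above background on 10 of 15 arrays, gave -0.90 and -1.43. The brightest kept probe of a gene is the one reported unless another is named.

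Further genes of the pathway, 149 in 7 lists outside the set, gave 146 with a signal, of which 0 passed the threshold at any dose, between doses or on the trend. The 40 measured other mitotic genes followed the set array by array, with a median deviation of 0.31 in 2500 ppm mouse 2, 0.30 in 5000 ppm mouse 1 and -0.35 in 500 ppm mouse 1. At 500 ppm 24 of these 40 lay below 0, beside 29.6% of all genes, with a median of -0.08 beside 0.12. The 3 mice lay below all controls for 9 of the 40 (2.15% of all genes) and above them for 0 (4.53%). The 41 other origin and replisome genes had a median of 0.00 at 500 ppm, with 20 below 0. In the remaining 5 lists the medians at 5000 ppm were 0.20 for 11 inhibitors of cyclin-dependent kinases and antiproliferative genes, 0.12 for 9 G1 cyclins and kinases, 0.02 for 18 genes of the Rb, E2F and DREAM complex, -0.04 for 12 condensin and cohesin genes and 0.18 for 15 genes of the anaphase promoting complex, beside 0.07 for all genes.

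The largest difference among the inhibitors was that of Cdkn2a, which encodes the kinase inhibitor Ink4a and the Arf protein. Its signals were -0.98, -0.22 and -1.02 on the control diet, 0.00, 1.15 and -0.34 at 20 ppm, 1.12, 0.64 and 0.16 at 500 ppm, -0.18, 0.95 and -0.06 at 2500 ppm and 1.28, 3.24 and 0.79 at 5000 ppm. All 3 mice at 5000 ppm lay above all controls, and so did those at 500 and 2500 ppm, with mouse 2 at 5000 ppm the highest array, and the difference at 5000 ppm was 2.51 ± 0.58 (5.7-fold higher, adjusted p = 0.35). The most negative of that list was Tob2 (-0.22 ± 0.29, adjusted p = 0.97). For the G1 cyclins and kinases the extremes at 5000 ppm were Mnat1 (0.28 ± 0.15) and Cdk2 (-0.69 ± 0.43), and for the Rb, E2F and DREAM list Rbbp4 (0.38 ± 0.26) and E2f5 (-0.29 ± 0.21). Among replisome genes they were Pold2 (0.35 ± 0.17) and Prim2 (-2.14 ± 1.06), and among other mitotic genes Stil (0.37 ± 0.32) and Cdc25b (-1.61 ± 0.68). Stag1 (0.19 ± 0.14) and Ncapg2 (-0.47 ± 0.24) bounded the condensin and cohesin list, and Anapc11 (0.33 ± 0.17) and Fzr1 (-0.01 ± 0.15) that of the anaphase promoting complex. None of these passed.

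Markers of cells that could add dividing or other cells to a lung sample were read on the same arrays, and 0 of them passed at any dose. For the 6 measured of 8 erythroid precursor markers the linear signals summed to between 31.7 and 55.9 times the 75th percentile on the control diet, 26.4 and 44.7 at 20 ppm, 18.1 and 34.4 at 500 ppm, 35.0 and 43.6 at 2500 ppm and 29.2 and 38.3 at 5000 ppm. Control mouse 2 was the highest of them and 500 ppm mice 1 and 2 the lowest, with median deviations of 0.55, -0.36 and -0.53, while 2500 ppm mouse 2 (0.08) and 5000 ppm mouse 1 (0.03) lay near 0. For all 6 cardiac muscle markers the sums ran from 7.70 to 55.2 on the control diet, 28.1 to 111 at 20 ppm, 49.9 to 105 at 500 ppm, 3.31 to 116 at 2500 ppm and 25.6 to 112 at 5000 ppm. Their lowest arrays were 2500 ppm mouse 2 (median deviation -3.32) and control mouse 2 (-2.40), both high in the mitotic genes, and 5000 ppm mouse 1 stood at -0.16. The part of either in the values above was not tested.

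In the same 2 high arrays, 2500 ppm mouse 2 and 5000 ppm mouse 1, the markers of other dividing or incoming cells had median deviations of -0.17 and 0.20 (10 T cell markers), 0.09 and -0.26 (4 thymocyte markers), -0.03 and 0.24 (8 B cell markers), 0.16 and -0.14 (6 germinal centre and plasma cell markers) and -0.39 and 0.25 (7 neutrophil precursor markers). For none of these lists were both arrays the highest of the 15. Lists of further cell types are not given here for these 2 arrays. The part of any cell type in the values above was not tested.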

How the data were processed

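RNA of 15 lungs was read on 1-colour Agilent mouse arrays. Total RNA, 100 ng a sample, was turned into cRNA carrying Cy3, per the labels' protocols. Signals come from Feature Extraction 10.7.3.1, per the file headers, and its processed signal, an intensity on a linear scale after background subtraction, was the starting point here. The authors' deposited table holds log2 values, which on every array had a correlation of 1 with the log2 processed signal and differed from it by a constant. Probes were named through RefSeq accessions and a table of GRCm38.p6.

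Control spots were left out, and so were spots called outliers unless all spots of the probe were. Each probe of the set had 1 spot, so a spot called an outlier stayed in for these genes. The array of 2500 ppm mouse 3 had the most spots called outliers, 274 beside a median of 128. Spots of a probe were averaged, and log2 signals of 56605 probes were set to 0 at the 75th percentile of each array. Probes well above background in at least 50% of spots on all 3 arrays of a diet were kept (43154), and the brightest kept probe stood for a gene. All 15 arrays entered 1 limma fit (3.58.1, R 4.3.3), 1 coefficient per diet and 10 residual degrees of freedom, with two-sided tests and Benjamini-Hochberg adjustment over 34401 genes at a threshold of 0.05. Errors are SE from this fit unless named SD. The fit was tested on simulated data with independent noise for each gene. Those data held no shift shared by an array or a slide, so that test does not cover such shifts. Labels call the 3 mice of a diet biological replicates. Their number limits the precision.

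The members and lists were chosen with earlier results of these data known. Genes with a value for every array were a fixed list of 14, the members with the largest positive and negative difference at 5000 ppm in each role group and the member with the smallest p of each comparison, 24 in all. Of each pathway list the largest positive and negative differences at 5000 ppm are named. Other members are given by single values, chosen after their values were seen.

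Like-numbered arrays of control and 20 ppm, and of 500 and 2500 ppm, deviated together from their diet means (smallest r 0.166 and 0.287 over all genes). In the other 8 of 10 pairs of diets they did not in every case. Between control and 20 ppm the like-numbered r was 0.608 for mouse 1, 0.257 for mouse 2 and 0.166 for mouse 3. Arrays of unlike number reached 0.373 there, so a link by number does not rest on mice 2 and 3. Between 500 and 2500 ppm the like-numbered r was 0.381, 0.287 and 0.474, and arrays of unlike number reached 0.249. Mouse 3 of these diets gave the 2 arrays set apart on the first component, so a link by number is not shown there. The labels give no shared litter or day for a number. Alternatives were normexp background correction (offset 50, on median spot signals), quantile normalization, the array median or the kept probes as the scale, the deposited values, other filters, other probe rules, array weights, empirical Bayes with a trend, the slide or the mouse number as a block, the compared groups only and each array left out in turn. The scale over kept probes, the values within a slide and the spans without dim genes were added after the data were seen.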

Additional observations from a re-analysis of the deposited data

How the results depend on the processing

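The count of members past the threshold was 0 in each of the 7 comparisons under the alternatives run, apart from the fit in which the slide was a fixed block. That fit rests on 500 ppm mouse 3 alone to separate slide from diet. It called 4 of 46 at 2500 ppm (Nusap1, Kif4, Kif11 and Kif2c), beside 5046 of all 34401 genes. At 5000 ppm it called 4 of 46, beside 4940 of all genes, and on the trend 4 of 46, beside 5485. Both times these were Aurkb, Kif4, Kif11 and Kif2c. In the F test it called 2 of 46 (Kif4 and Kif11), beside 2850 of all genes. Each time a smaller share of the members was called than of all genes. At 2500 and 5000 ppm and on the trend every member called was lower, as were most of all genes called. Kif4 stood at -3.21 at 5000 ppm (adjusted p = 0.00554). Medians over the members moved by less than 0.26, the SD between single arrays of a diet. That bar is wider than the error of a difference between means of 3 mice. It also exceeds the size of the medians at 20, 2500 and 5000 ppm, so keeping within it does not show them to be stable. The medians changed by over 1.5 times under several alternatives. At 500, 2500 and 5000 ppm, where they were -0.29, -0.13 and -0.07, they were -0.41, -0.37 and -0.29 under the fixed slide block, -0.34, -0.23 and -0.15 under the random one, -0.52, -0.24 and -0.15 with array weights and -0.22, -0.038 and -0.011 with normexp correction. Medians of all genes moved with them, from 0.12, 0.05 and 0.07 to 0.016, -0.15 and -0.14 under the fixed slide block. With 1 array left out they ran from -0.23 to -0.02 at 20 ppm, from -0.41 to -0.20 at 500 ppm, from -0.36 to 0.00 at 2500 ppm, from -0.31 to 0.00 at 5000 ppm and from -0.14 to 0.24 between 5000 and 2500 ppm.

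Some differences at 5000 ppm turned their sign, among the 24 members for which single alternatives were computed. With normexp correction Ccna2 was 0.044, Ccnb1 0.059, Ccne1 0.068, Cdk1 0.076, E2f1 -0.045 and Kif4 0.088. With quantile normalization Birc5 was -0.032, Ccnb1 0.019 and Cdk1 0.024, and with the array median as scale Ccnb1 was 0.0053 and Cdk1 0.0051. The dimmer probes gave -0.40 for Birc5 and 0.41 for Ccnb1, and the mean of probes -0.19 and 0.20. Under the fixed slide block Birc5 was -0.034, Ccna2 0.10, Cdca8 -0.051 and E2f1 -0.18, and under the random one E2f1 was -0.058. Array weights gave Birc5 -0.050, Cdca8 -0.024 and E2f1 -0.039. Without control and 20 ppm mouse 1, with or without the 2 arrays apart on the first component, Birc5 was -0.097, Cdca8 -0.062 and E2f1 -0.039. Scaling on kept probes gave Birc5 -0.022 and E2f1 -0.049. With 1 array left out the sign turned for 13 of these 24, which ran from -0.30 to 0.21 (Birc5), -0.37 to 0.17 (Ccna2), -0.34 to 0.24 (Ccnb1), -0.27 to 0.10 (Ccne1), -0.068 to 0.37 (Cdca3), -0.18 to 0.21 (Cdca8), -0.091 to 0.10 (Cdk1), -0.053 to 0.060 (E2f1), -0.12 to 0.0095 (Pcna), -0.032 to 0.29 (Rrm1), -0.25 to 0.13 (Rrm2), -0.17 to 0.067 (Tyms) and -0.30 to 0.059 (Ube2c). The cause was not tested.

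With the mouse number as a replicate block, 0 members passed at any dose and the medians were those without it, -0.29 at 500 ppm and -0.07 at 5000 ppm. Dim probes limit Kif2c, Kif11 and Pbk, which were not above background on every array.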
